A study of Mus musculus with 12 samples.

Results

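The nuclear genes for the subunits of the 5 oxidative phosphorylation complexes were followed in mouse striatum, in total RNA and in RNA cross-linked to the RNA-binding protein hnRNP H. They were chosen by name from the RNA-seq table: every symbol that began with Ndufa, Ndufb, Ndufc, Ndufs, Ndufv, Uqcr, Cox4i, Cox5, Cox6, Cox7, Cox8 or Atp5, together with Sdha, Sdhb, Sdhc, Sdhd and Cyc1, without pseudogenes and without the Ndufaf assembly factors. The rule found 87 of 18208 genes: 39 for complex I, 4 for complex II, 9 for complex III, 18 for complex IV and 17 for complex V. The complex was assigned from the gene name alone. Ndufa4 and its paralog Ndufa4l2 were thus counted with complex I by name, which does not establish that they belong to it. All 87 were deposited with a value in each library. Since they were taken from the deposited genes, a subunit gene filtered out before deposition would not be seen. The 13 subunits that the mitochondrial genome encodes were not analysed here.

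Complexes I and II pass electrons from NADH and succinate to ubiquinone. Complex III hands them to cytochrome c and complex IV to oxygen, while complexes I, III and IV pump protons that drive ATP synthesis in complex V. Neurons depend on this pathway for most of their ATP, and several complex IV and complex V subunits exist as paralogs that differ between tissues. hnRNP H binds runs of G in RNA and is known for its part in splicing.

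The animals were wild-type C57BL/6J mice, 50 to 100 days old, born to males heterozygous for an Hnrnph1 mutation and C57BL/6J females. All received saline injections on the first and the second day. On the next day 1 group received saline again and the other methamphetamine at 2 mg/kg, both into the peritoneum, and whole striata were taken 30 min later. Each replicate pooled the striata of 2 females and 2 males. There were 3 pools per treatment, each measured by CLIP-seq (sequencing of RNA cross-linked to and pulled down with hnRNP H) and, from tissue set aside before cross-linking, by RNA-seq, which makes 12 libraries in 4 groups. The p-values therefore describe the spread between pools, not between single mice. For CLIP-seq, complexes were cut from the membrane between 50 and 75 kDa, which per the labels corresponds to RNA fragments of 30 to 70 nt.

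Depth was 3935160 to 5091839 reads per RNA-seq library and 423057 to 1635338 reads in CLIP windows per CLIP library; the shallowest CLIP library was saline replicate 2. All 10 markers of medium spiny neurons, the main neuron type of the striatum, were present in every RNA-seq library, with summed levels of 5685 to 7662 CPM (counts scaled to library size). Among 10 immediate early genes, which rise soon after neuronal stimulation, 0 passed the adjusted threshold between treatments; Fos, Dusp1 and Btg2 had an unadjusted limma p under 0.05, with log2 changes of 0.88, 0.65 and 1.28, and with the library set described next as a covariate 5 of the 10 did. The RNA-seq libraries fell on opposite sides of the first principal component, which held 65.6% of the variance over the 7853 genes whose mean log2 CPM exceeded 4, and treatment did not set the side. Set A held saline replicates 1 and 3 and methamphetamine replicate 2, and set B held saline replicate 2 and methamphetamine replicates 1 and 3. These sets were defined from the data and are no groups of the study, so values by set are a description, and the members' median treatment changes are also given with the set as a covariate.

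Levels differed widely among subunits of the same complex. Between genes they are compared as log2 CPM per kb of the longest annotated transcript, averaged over the 6 libraries. On that scale the median of all 87 genes was 5.39, and the medians were 5.02 for complex I, a similar level for complex II, 5.42 for complex III, 5.19 for complex IV and 6.39 for complex V. The highest level per kb was that of Cox6a1, a small complex IV subunit, at 9.67, ahead of Cox8a at 9.22 and Atp5b, the catalytic beta subunit of ATP synthase, at 8.90. In log2 CPM, Atp5b stood at 9.83, 10.00 and 9.50 in saline replicates 1 to 3 and at 10.13, 9.59 and 9.98 in methamphetamine replicates 1 to 3. The treatments overlapped, and the 3 lowest values were those of set A. Cox8a varied least of these, from 8.19 to 8.52 log2 CPM.

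**Figure D1:**
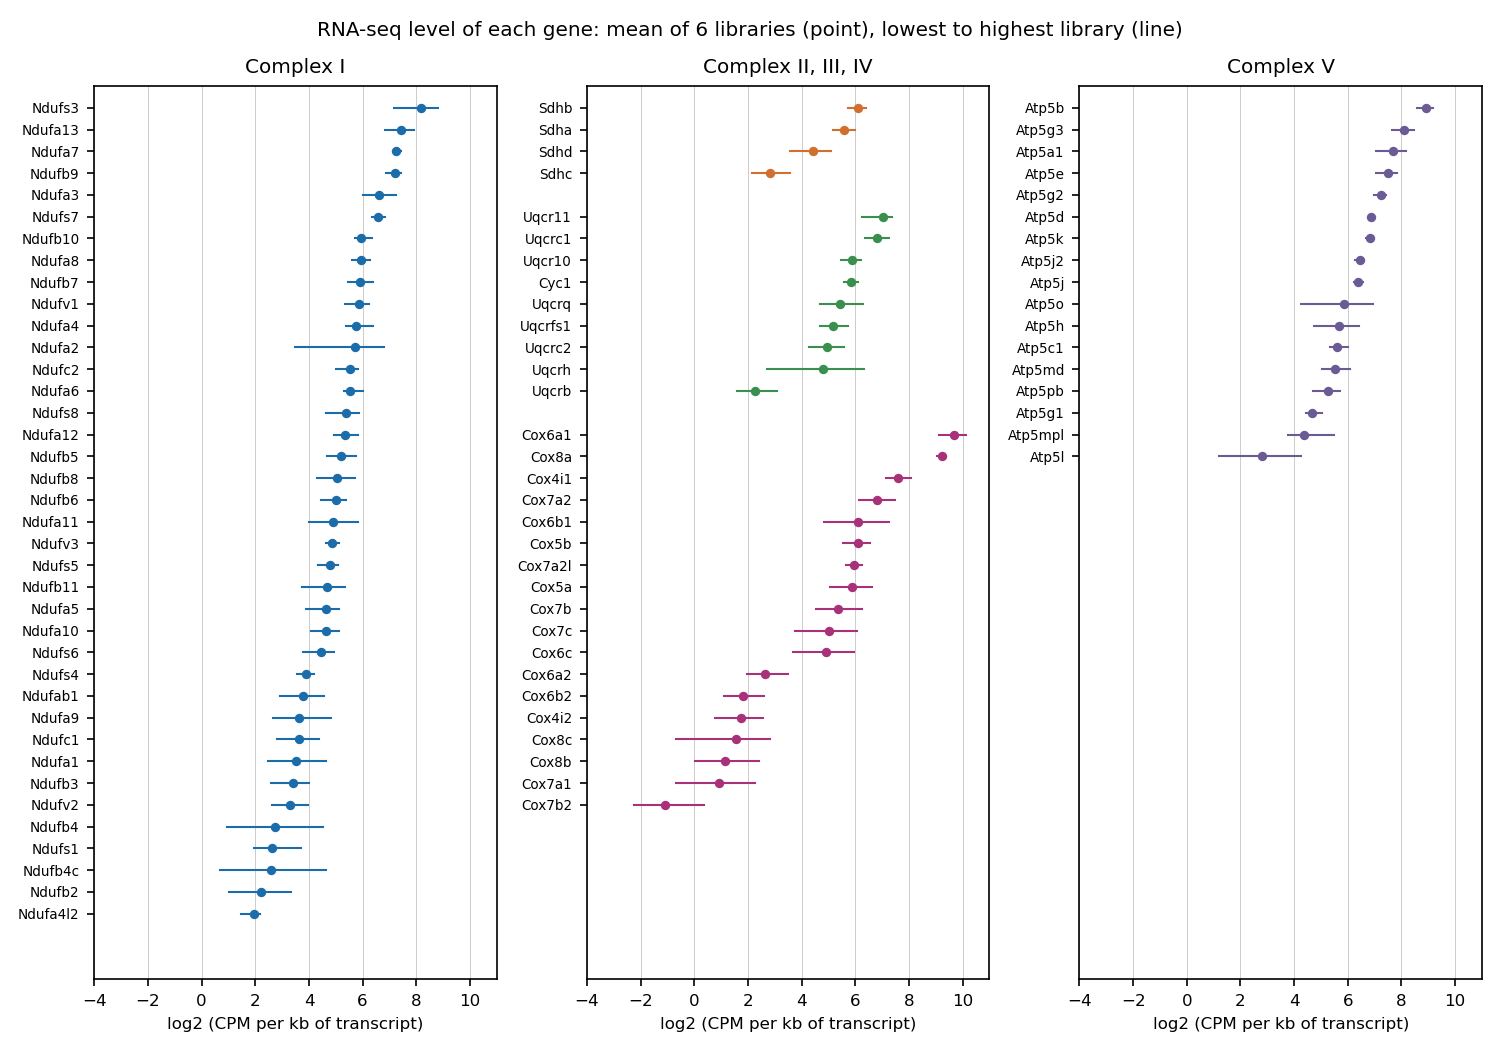
RNA-seq level of 86 of the 87 genes, in log2 CPM per kb of transcript on the horizontal axis, by complex; the point is the mean of 6 libraries and the line runs from the lowest to the highest library. Most genes lie between 3 and 8, with Cox6a1 highest at 9.67 and Cox7b2 lowest at -1.09.

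In complex I, Ndufs3, a core subunit of the arm that receives electrons, had the highest level per kb at 8.18, followed by Ndufa13 at 7.44 and Ndufa7 at 7.23, both accessory subunits. The lowest were Ndufb2 at 2.20 and Ndufa4l2 at 1.95. Ndufa4l2, the paralog of Ndufa4 known as a hypoxia-induced gene, was placed here by its name only. Core subunits spanned most of this range: Ndufv1, which binds NADH, was at 5.86, while Ndufs1, the large iron-sulfur subunit, was at 2.61. The order of neighbours was not firm where libraries spread: Ndufs1 ran from 1.93 to 3.69 per kb between libraries and so overlapped Ndufb2, which ran from 1.01 to 3.31.

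Complex II ran from Sdhb, the iron-sulfur subunit, at 6.11 log2 CPM per kb and the flavoprotein Sdha at 5.60 to the membrane anchors Sdhd at 4.41 and Sdhc at 2.83. Sdhb ranged from 5.73 to 6.42 and Sdha from 5.17 to 5.97 over the libraries. These ranges overlapped, but they do not compare the genes within a library, so they do not show that their order changed. In complex III, Uqcr11 at 7.03, the core protein Uqcrc1 at 6.82 and Uqcr10 at 5.88 were highest per kb, and the hinge protein Uqcrh at 4.79 and Uqcrb at 2.26 were lowest. The electron carriers Cyc1 (cytochrome c1) and Uqcrfs1 (the Rieske protein) were at 5.83 and 5.19. The low value of Uqcrb is uncertain, since 43.4% of the 50-base stretches of its transcripts also occur in another gene.

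In complex V, Atp5b at 8.90, Atp5g3 at 8.09 and Atp5a1, the alpha subunit, at 7.67 led per kb, and the small subunits Atp5mpl at 4.36 and Atp5l at 2.79 came last. Of the 50-base stretches of Atp5l, 84.8% are shared with another gene. Such sharing was common among these genes: 28 of 87 shared more than 10% of their 50-base stretches with another annotated gene, 39 shared none, and Ndufb4c shared 100%. The deposited files do not say how reads that fit several genes were counted, so the levels of the 28 are uncertain. The 28 include Cox6a1, at 12.3% shared, and Ndufa13, at 28.5%, both named above for high levels. The exons of 28 members also overlap exons of a gene on the opposite strand, and those of 4 overlap a gene on their own strand; whether counting used the strand is not given in the sources used here.

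In the paralog families the general forms were high and the forms known from other tissues low. Cox4i1, the general form of subunit 4, stood at 7.61 log2 CPM per kb and Cox4i2, the form best known from lung and hypoxia, at 1.76. Cox6a1 was at 9.67 and Cox6a2, known from muscle, at 2.64. Cox6b1 was at 6.12 and Cox6b2, known from testis, at 1.81. These pairs did not overlap in any library.

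Cox7a2 at 6.79 and Cox7a2l, a supercomplex assembly protein, at 5.97 lay far above the muscle form Cox7a1 at 0.92. Cox8a at 9.22 lay far above Cox8b, another muscle form, at 1.17 and Cox8c, known from testis, at 1.57. Ndufa4 was at 5.75 against 1.95 for Ndufa4l2. The Atp5g genes differed from this pattern: they encode the same mature c subunit, and all were well detected, Atp5g3 at 8.09, Atp5g2 at 7.22 and Atp5g1 at 4.68 per kb. The Atp5g1 value was divided by a longest transcript of 4715 nt, and in log2 CPM, without that division, it ranged from 6.68 to 7.28, close to Atp5g2.

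The low paralogs rested on few reads. Cox4i2 had 15, 13 and 13 reads in saline and 8, 11 and 6 in methamphetamine. Cox7a1 had 1 to 9 reads per library, Cox8b 1 to 8 and Cox8c 1 to 11. Cox7b2, known from testis, had 2 reads in saline replicate 1, 1 read in each of 3 other libraries and 0 in saline replicate 3 and methamphetamine replicate 2, where a count of 0 allows up to 3 reads.

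**Figure D2:**
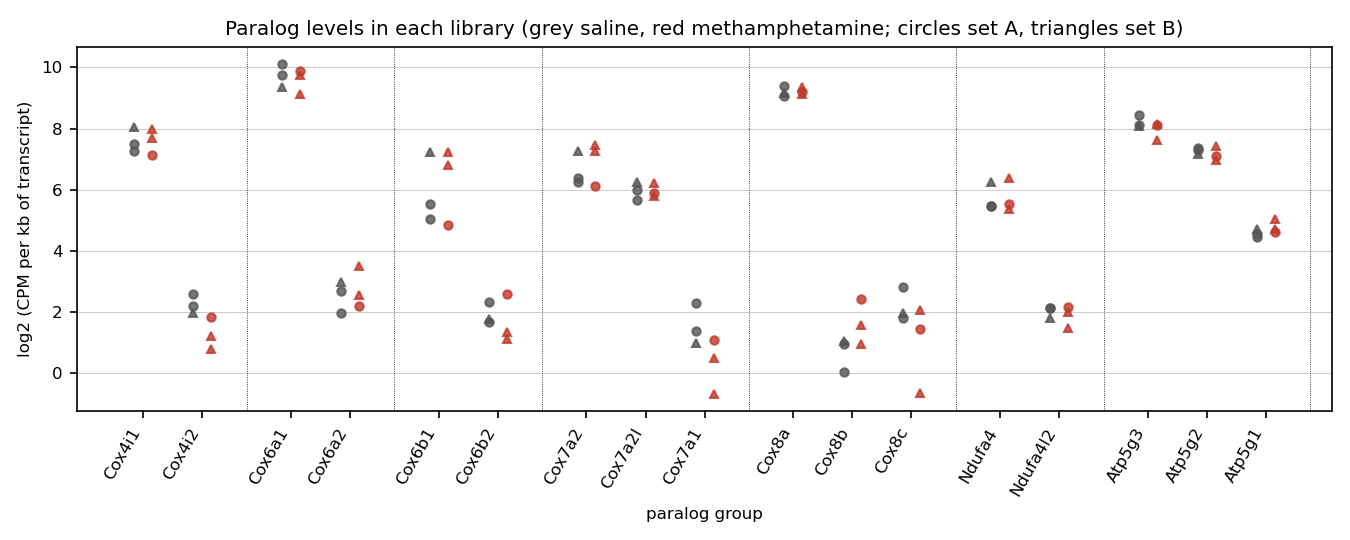
Level of each paralog in each library, in log2 CPM per kb of transcript, for 7 paralog groups; grey points are saline, red points methamphetamine, circles set A and triangles set B. The general forms lie several log2 units above the forms known from muscle, testis or hypoxia, while the Atp5g genes, with means of 8.09, 7.22 and 4.68, are all well detected.

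The first question of the design was whether methamphetamine changed these transcripts within 30 min. No member rose or fell by the test. Across all 18208 genes limma called 0 with Benjamini-Hochberg adjustment at 0.05 (0% of genes), and 276 genes (1.52%) had an unadjusted p under 0.05, none of them a member. The members' log2 changes, methamphetamine minus saline, had a median of 0.07 against 0.00 for all genes, 58 of 87 were above 0, and they ran from -1.26 to 0.97 with a median standard error of 0.30. A quasi-likelihood test in edgeR on the reads recovered from the deposited values, 100% of which came out whole, also called 0 genes, with 109 at an unadjusted p under 0.05.

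The sign of this small median was not stable. With the library set as a covariate the members' median became -0.14, against -0.01 for all genes, and 16 of 87 were above 0. Within set A it was -0.08 and within set B -0.18, each comparing 1 library with 2. Without saline replicate 3 it was -0.15 and without methamphetamine replicate 1 it was -0.13, whereas without saline replicate 2 it was 0.29 and without methamphetamine replicate 2 it was 0.28.

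By complex, the median log2 change was 0.08 for complex I, 0.07 for complex II, 0.15 for complex III, 0.05 for complex IV and 0.04 for complex V. With the set as a covariate these medians were -0.16, -0.20, -0.18, -0.12 and -0.09. The members' share of all RNA-seq reads was 0.618%, 0.819% and 0.508% in saline replicates 1 to 3, or 0.648% ± 0.158 (SD, n = 3). In methamphetamine it was 0.871%, 0.533% and 0.701%, or 0.702% ± 0.169 (SD, n = 3). The treatments overlapped and differed by less than the SD within either.

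**Figure D3:**
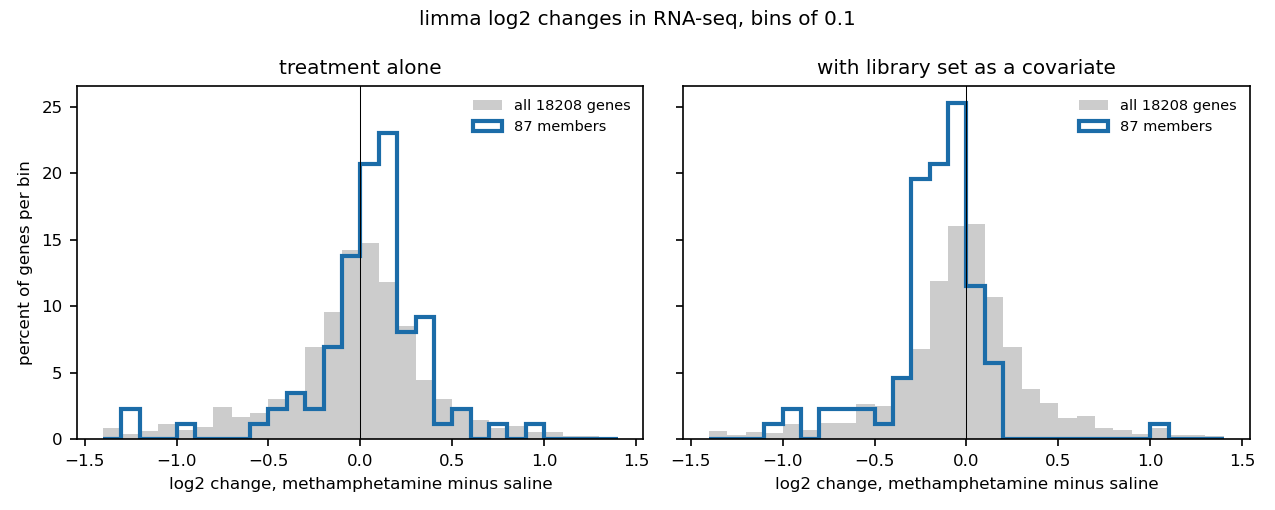
Distribution of limma log2 changes, methamphetamine minus saline, as percent of genes in bins of 0.1 between -1.4 and 1.4, for all 18208 genes (grey) and the 87 members (blue line), without and with the library set as a covariate. The members' median is 0.07 without and -0.14 with the covariate.

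No catalytic or defining subunit passed the test. In log2 units the change was -0.13 for Ndufs1, -0.04 for Ndufv1, 0.06 for Sdha, -0.03 for Uqcrfs1 and -0.01 for Cyc1. In complexes IV and V it was 0.01 for Cox4i1, 0.43 for Cox5a, 0.03 for Atp5a1 and 0.12 for Atp5b. The standard errors were 0.23 for Atp5b and 0.45 for Ndufs1, so a change in Ndufs1 as small as that of Cox5a was not detectable with 3 pools per treatment. With the library set as a covariate the change was 0.09 for Cox5a and -0.53 for Ndufs1.

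The smallest unadjusted p among members belonged to low paralogs. Cox4i2 was at 2.12, 1.51 and 1.74 log2 CPM in saline replicates 1 to 3 and at 0.76, 1.39 and 0.33 in methamphetamine replicates 1 to 3. It was the only member whose treatments did not overlap, by a narrow margin, and 3.58% of all genes were likewise higher in every saline library and 2.44% in every methamphetamine library. Its log2 change was -0.96 (SE 0.44, limma unadjusted p = 0.0578), and its adjusted p was 1.0; with the library set as a covariate the change was -0.75.

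Cox7a1 was at 0.34, -0.07 and 1.24 log2 CPM in saline and at -1.74, 0.04 and -0.57 in methamphetamine. Methamphetamine replicate 2 lay above saline replicate 2, so the groups overlapped, with a log2 change of -1.26 (SE 0.64, limma unadjusted p = 0.0829). Cox8c had a log2 change of -1.25 (SE 0.73, limma unadjusted p = 0.120). With the covariate these changes were -0.91 for Cox7a1 and -1.07 for Cox8c. All 3 genes rest on at most 15 reads per library.

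With the library set as a covariate, 3 complex I members had an unadjusted limma p under 0.05, each lower with methamphetamine, beside 2.97% of all genes, and 0 genes were called. Ndufs6, an accessory subunit of the electron-receiving arm, was at 4.16, 4.53 and 4.13 log2 CPM in saline and at 4.40, 3.38 and 3.77 in methamphetamine. Its log2 change was -0.61 with the covariate (limma unadjusted p = 0.0202) and -0.43 without it (limma unadjusted p = 0.174). The values with the covariate were -0.53 for Ndufs1 and -0.55 for the accessory subunit Ndufa9. None passed the adjusted threshold in limma; the lowest adjusted p of a member was 0.999.

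Related lists also held no gene that passed the limma threshold between treatments. The median log2 change was 0.03 for 14 complex I assembly factors and 0.02 for 31 assembly factors of complexes II to V. It was 0.14 for 13 citrate cycle enzymes, all of them above 0, but -0.01 with the library set as a covariate. It was 0.15 for 16 glycolysis enzymes, 0.04 for 11 regulators of mitochondrial genes and 0.10 for 8 carriers and channels, among them cytochrome c. With the covariate the medians were 0.02 for complex I assembly, -0.03 for the other assembly factors, 0.02 for glycolysis, -0.04 for the regulators and -0.10 for the carriers.

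The libraries themselves separated most members. Of the 87 genes, 46 were higher in every set B library than in every set A library, and 4 were lower: Ndufs3, Cox6a1, Cox7a1 and Ndufa4l2. Among all genes 19.9% were higher in every set B library and 18.9% were higher in every set A library. Among the 7853 genes used for the principal component these shares were 26.4% and 19.9%. Of the members, 70 were among these genes and so took part in defining the sets. Of those 70, 41 were higher in every set B library and 2 were lower. The members' median difference, set B minus set A, was 0.53 log2 units against -0.03 for all genes. It was above 0 for 73 of 87 members and above 1 for 20.

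All complexes shared this direction. Without overlap, set B was higher for 20 of 39 complex I genes, 3 of 4 complex II genes, 5 of 9 complex III genes, 8 of 18 complex IV genes and 10 of 17 complex V genes. The median differences were 0.56, 0.66, 0.60, 0.52 and 0.39. Deviations from each gene's mean had a median over members of -0.05, 0.36 and -0.43 in saline replicates 1 to 3 and of 0.38, -0.33 and 0.07 in methamphetamine replicates 1 to 3. Saline replicate 1 and methamphetamine replicate 3 thus lay between the other libraries.

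**Figure D4:**
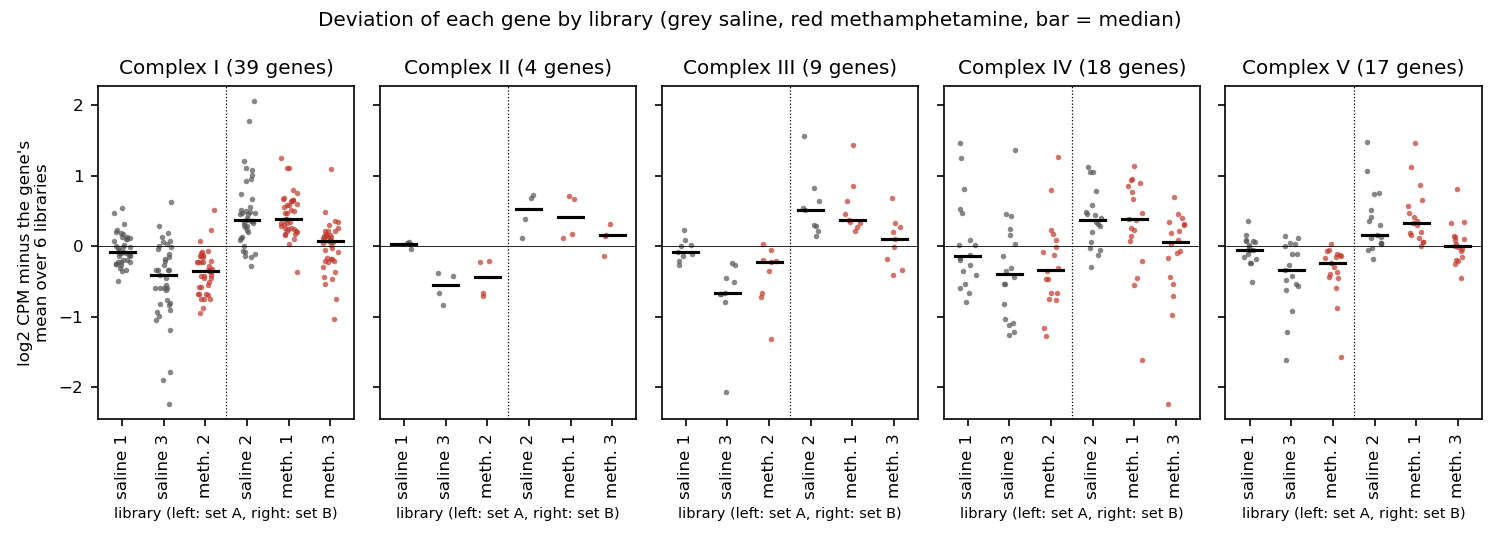
Log2 CPM minus the gene's mean over 6 libraries, for every member (points) and its median (bar), in each library, by complex; set A libraries are on the left of each panel and set B on the right, grey for saline and red for methamphetamine. In every complex the medians of saline replicate 2 and methamphetamine replicate 1 are above 0 and those of saline replicate 3 and methamphetamine replicate 2 are below 0.

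The largest difference was that of the small subunit Uqcrh. It was at 3.64, 5.47 and 1.85 log2 CPM in saline and at 5.35, 2.60 and 4.60 in methamphetamine, from 14 reads in saline replicate 3 to 210 in saline replicate 2. Set B exceeded set A by 2.44 log2 units, or 5.44-fold, without overlap. Cox6b1, which links the monomers of complex IV, was at 4.83, 6.54 and 4.34 in saline and at 6.55, 4.15 and 6.12 in methamphetamine. Its difference was 1.97 log2 units, or 3.91-fold, the largest among members with a mean log2 CPM above 4. Between them stood Ndufb4c at 2.08, which shares all of its 50-base stretches with another gene.

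After Cox6b1, the next among members above that level were Ndufa2, a complex I accessory subunit, at 1.87, Atp5o, the stalk subunit of ATP synthase, at 1.82 and Cox6c at 1.55. Atp5o was at 5.37, 6.68 and 4.00 log2 CPM in saline and at 6.48, 4.73 and 6.42 in methamphetamine. Its set B libraries lay close together while its set A libraries spread widely. A read-through gene model, described with the CLIP windows below, has the same symbol, and which of them this RNA-seq level counts is not known.

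Ndufs3 went the other way. It was at 8.79, 7.97 and 8.88 log2 CPM in saline and at 7.88, 8.76 and 7.22 in methamphetamine. Set A exceeded set B by 1.12 log2 units, or 2.18-fold, without overlap, and 39.7% of its 50-base stretches are shared with another gene. Cox6a1, at 8.95, 8.57 and 9.32 in saline and 8.94, 9.09 and 8.32 in methamphetamine, differed by -0.51. Among members with a mean log2 CPM above 4, Ndufa5 and Atp5g3 followed with -0.34 and -0.28, both with overlapping sets. Of the low paralogs, Cox7a1 differed by -1.33, Cox8c by -0.91, Cox4i2 by -0.89, Cox6b2 by -0.79 and Ndufa4l2 by -0.39.

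Several properties moved with this difference, and their part in it was not tested. The deposited values use effective library sizes that were 0.904, 0.860 and 0.897 times the read total in set A and 1.01, 1.02 and 1.02 times in set B. When scaled to read totals instead, the all-gene median difference moved to 0.17 and the members' to 0.72. Then 62 members were higher in every set B library and 1, Ndufs3, was lower. The lower values of Cox6a1, Cox7a1 and Ndufa4l2 without overlap thus depended on the scaling. The matching shares of all genes were not counted at this scaling. Those given above are for the deposited values and are no like comparison for the 62. Across the 87 members the difference had a Spearman rho of -0.40 with GC content of the transcript, and across 7741 genes with a mean log2 CPM above 4 it was -0.41; these points share libraries and are no independent replicates.

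The median difference was 0.64 for the 28 members with more than 10% shared 50-base stretches and 0.48 for the other 59. It was 0.47 for the 56 members whose exons overlap no other gene's exons.

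Marker genes of other cell types also differed between the sets, and in pooled tissue fewer cells of a type and less RNA per cell cannot be told apart. The 10 medium spiny neuron markers summed to 6870 to 7662 CPM in set A and 5685 to 6461 CPM in set B, and 6 of 10 were lower in every set B library. The 10 cortical excitatory neuron markers summed to 180 to 430 CPM in set A and 527 to 948 CPM in set B, with 6 of 10 higher in every set B library. The 6 astrocyte markers summed to 642 to 666 CPM in set A and 1125 to 1268 CPM in set B, with 4 of 6 higher. No marker of these lists was at 0 reads. Their part in the members' difference was not tested.

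Several other lists also differed between the sets. General neuron markers summed to 2813 to 3164 CPM in set A and 3674 to 4259 CPM in set B. Parvalbumin interneuron markers summed to 842 to 897 CPM in set A and 1049 to 1736 CPM in set B. In the same order microglia markers summed to 179 to 207 and 251 to 291 CPM. Endothelial and pericyte markers summed to 85.4 to 106 and 108 to 151 CPM. The sums of oligodendrocyte and of red cell markers overlapped between the sets. Set B was higher in every library for 4 of 6 general neuron markers, 3 of 5 parvalbumin interneuron markers, 2 of 6 oligodendrocyte, 2 of 6 microglia, 2 of 5 endothelial and pericyte and 1 of 4 red cell markers. It was lower for 1 general neuron marker (Rbfox3), 1 parvalbumin interneuron marker (Tac1, also a medium spiny neuron marker) and 1 endothelial and pericyte marker (Pdgfrb). It was lower for 2 of 7 choroid plexus markers, whose sum was 4420 CPM in methamphetamine replicate 2 and 62.8 to 203 CPM in the other libraries. It was lower for 3 of 8 muscle markers. Their sum was 109 to 119 CPM in set A and 75.1 to 81.9 CPM in set B.

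Neighbouring metabolic lists followed the members to different degrees. Of 13 citrate cycle enzymes, 12 were higher in every set B library, with a median difference of 0.68; citrate synthase, Cs, was at 6.79, 7.36 and 6.29 log2 CPM in saline and 7.24, 6.43 and 7.10 in methamphetamine. Of 16 glycolysis enzymes 9 were higher and 1, Pkm, was lower, with a median of 0.32. Of 8 carriers 5 were higher. Assembly factors moved less, with medians of 0.16 for complex I (5 of 14 higher, 1 lower) and 0.26 for complexes II to V (10 of 31 higher, 4 lower). The regulators divided, 5 of 11 higher, among them the coactivator Ppargc1a with a difference of 0.83, and 5 lower, among them Esrra with -0.53 and Gabpa with -0.27.

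The CLIP-seq data asked which of these transcripts hnRNP H contacted. Of 147438 distinct windows of 100 nt with counts, 345 lay in 77 members. The 10 without a window were Atp5e, Cox7a1, Cox8b, Cox8c, Ndufa2, Ndufa4, Ndufb3, Ndufb4c, Ndufc1 and Ndufs8. Most windows were shallow: 243 of 345 held fewer than 10 reads over the 6 libraries, 62 had reads in 1 library and 25 had none. The 345 windows held 21743 reads, of which 15276 (70.3%) lay in 1 window.

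Windows in coding exons of 3 members carry the values given below for Sdhb, Atp5b and Cyc1, and their sequences show the letters that hnRNP H is known to bind. They are given 5′ to 3′ on the transcript strand (+) from GENCODE M21 transcripts on GRCm38, with runs of 3 or more G in capitals. The Sdhb window lies at chr4:140966504-140966603, the Atp5b window at chr10:128085474-128085573 and the Cyc1 window at chr15:76344324-76344423.
Sdhb: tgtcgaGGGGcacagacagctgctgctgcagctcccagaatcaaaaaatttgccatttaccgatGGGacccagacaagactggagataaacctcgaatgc
Atp5b: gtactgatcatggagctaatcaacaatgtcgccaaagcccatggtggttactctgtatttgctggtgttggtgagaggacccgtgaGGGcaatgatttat
Cyc1: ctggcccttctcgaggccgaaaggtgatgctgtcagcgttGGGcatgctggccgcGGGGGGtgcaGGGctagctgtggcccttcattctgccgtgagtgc

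The Sdhb window holds 2 such runs, the Atp5b window 1 and the Cyc1 window 3, the longest of 6 G. Sequence could be read for the 72 member windows that lie within 1 exon. Of these 57 (79.2%) held GGG on the transcript strand, against 70.9% of 24074 such windows in all genes. The longer run GGGG, which overlaps GGG, was in 43.1% against 36.5%. In coding exons 16 of 17 member windows (94.1%) held GGG against 75.5% of all, and 5 of 17 (29.4%) held GGGG against 36.0%. A match is a description of the letters, and the members' windows are few.

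The deepest window carried the name Atp5o but lies far from that gene. It is at chr16:91885999-91886098 (GRCm38, minus strand), in an intron of a read-through gene model, ENSMUSG00000116933, at chr16:91684398-91926982, which shares the symbol with Atp5o proper (ENSMUSG00000022956, chr16:91925214-91931687). The intron runs opposite to Itsn1 (chr16:91729281-91920597, plus strand), and the window lies outside Atp5o proper. Whether its reads come from RNA that also holds the ATP synthase transcript was not tested. It held 3458, 437 and 5469 reads in saline and 946, 3134 and 1832 in methamphetamine. As CPM of the library's window reads these are 3283, 1033 and 3344 against 1041, 3198 and 3077. Saline replicate 2 and methamphetamine replicate 1 were low, and the treatments overlapped (edgeR log2 change 0.12, SE 0.47, unadjusted p = 0.799).

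The next 3 windows by depth lay in Ndufv1, Sdhb and Cox4i2. The Ndufv1 window, in an intron at chr19:4012485-4012584 (minus strand), was the only window of that gene and held 395, 158 and 410 CPM in saline and 180, 372 and 359 CPM in methamphetamine. The Sdhb window in a coding exon, printed above, held 99.7, 47.3 and 96.0 CPM in saline and 55.0, 84.7 and 102 CPM in methamphetamine. The Cox4i2 window, in an intron at chr2:152754474-152754573, held 74.1, 49.6 and 100.3 CPM in saline and 24.2, 84.7 and 70.5 CPM in methamphetamine. In all 4 deepest windows the lowest libraries were saline replicate 2 and methamphetamine replicate 1, and none of the 4 was in either final peak list.

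The other named windows were shallower. An intron window of the Atp5o read-through model at chr16:91780299-91780398 held 26, 38 and 62 reads in saline and 42, 32 and 115 in methamphetamine. An Atp5c1 intron window held 28, 11 and 40 reads in saline and 15, 32 and 48 in methamphetamine. The Atp5b window printed above held 16, 4 and 28 reads in saline and 8, 15 and 43 in methamphetamine. Methamphetamine replicate 3 held the most reads in each of the 3.

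By region, 256 of the 345 windows (74.2%) lay in introns, against 80.7% of all windows. Coding exons held 25 (7.25% against 3.31%), other exons 29 (8.41% against 4.76%), 5′ UTRs 16 (4.64% against 2.04%) and 3′ UTRs 19 (5.51% against 8.99%). The members are short genes: their median gene body is 7187 nt against 21634 nt for all genes, and their median longest transcript 861 nt against 2953 nt. Over gene bodies, without the 2 read-through windows, the members had 35.6 windows per 100 kb against 13.7 for all genes and 6.38 reads per kb against 4.49. Without Ndufv1 they had 4.44 reads per kb. A window was present in 88.5% of members and in 73.7% of all genes.

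Relative to transcript level, CLIP reads were lower in members than in all genes by the median. The log2 ratio of CLIP CPM to RNA CPM, averaged over the 6 pools, could be computed for 62 members with at least 10 CLIP reads and for 11644 genes. Its median was -2.99 for members and -0.49 for all genes, a ratio 5.65-fold lower, and 8 of 62 members lay above the median of all genes. In saline replicates 1 to 3 the members' medians were -2.70, -3.16 and -2.55, and in methamphetamine replicates 1 to 3 they were -2.83, -2.63 and -2.52. The medians of all genes in the same order were -0.45, -0.64, -0.21, -0.24, -0.35 and -0.60, so the members were lower in every pool. This compares reads from mostly intronic windows with reads of whole transcripts, and gene length, intron length and transcript stability enter the ratio.

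The highest ratios belonged to few genes. Ndufv1 was at 1.68, at or above 1.81 in 4 pools and at 0.40 and 0.49 in saline replicate 2 and methamphetamine replicate 1. Cox4i2 was at 4.72 and Cox7b2 at 5.55, both with a single window in an intron and few RNA-seq reads, and Atp5o at 5.62 through the read-through windows. Sdhb was at 0.15. The lowest were Ndufs3 at -6.75, Ndufa13 at -6.05, Atp5d at -5.96, Cox4i1 at -5.71 and Atp5g3 at -5.59, each highly expressed with 19 to 27 CLIP reads in all. Over the 87 members CLIP reads had a Spearman rho of 0.46 with RNA-seq reads, and over 13222 genes 0.42.

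**Figure D5:**
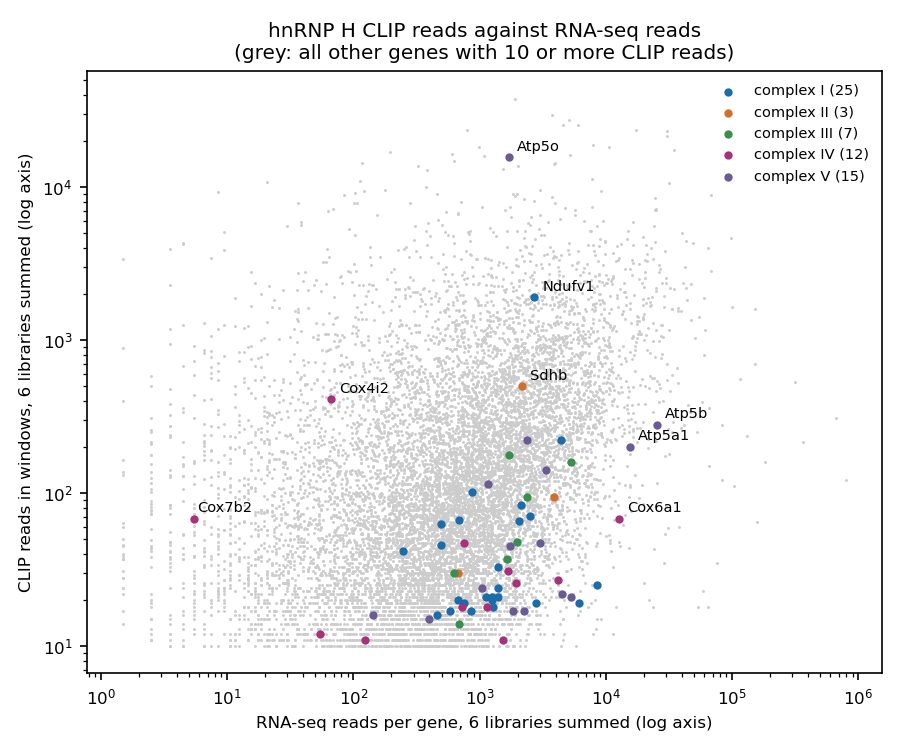
CLIP reads in windows against RNA-seq reads per gene, both summed over 6 libraries on log axes, for the 62 members with at least 10 CLIP reads, coloured by complex, and all other such genes (grey). Most members lie in the lower part of the grey cloud for their RNA-seq reads; Atp5o, Ndufv1, Cox4i2 and Cox7b2 lie in its upper part.

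Methamphetamine did not change CLIP reads in any member by the test. Of 10358 windows that passed the count filter, edgeR called 0 (0%), with 347 (3.35%) at an unadjusted p under 0.05. Only 12 of the 345 member windows passed the filter; none of them had an unadjusted p under 0.05, and their median log2 change was 0.17 against 0.05 for all, or 0.26 against 0.09 with the library set as a covariate. Summed per gene, edgeR called 0 of 8167 genes (0%) with 426 (5.22%) at an unadjusted p under 0.05, and 21 members passed the filter with a median of 0.19 against 0.04, or 0.26 against 0.04 with the covariate. The members' share of all CLIP window reads, without the read-through windows, was 0.1003%, 0.0737% and 0.117% in saline, or 0.0969% ± 0.0217 (SD, n = 3). It was 0.109%, 0.111% and 0.135% in methamphetamine, or 0.118% ± 0.0145 (SD, n = 3), and the treatments overlapped.

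Among the members with the smallest p were 2 ATP synthase subunits with higher values after methamphetamine, neither past the threshold. Atp5b had 36.1, 26.0 and 39.7 CPM in saline and 42.9, 57.2 and 119 CPM in methamphetamine, with a log2 change of 1.08 (SE 0.48, edgeR unadjusted p = 0.0501, adjusted p = 0.882). Without methamphetamine replicate 3, the highest library, the Atp5b change was 0.52, and with the library set as a covariate it was 1.00. Atp5c1, the gamma subunit that rotates in ATP synthase, had a change of 0.90 (SE 0.48), which was 0.36 without methamphetamine replicate 3 and 0.67 with the covariate.

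Without a count filter edgeR called 414 of 140449 windows (0.295%), and 0 of 320 member windows. Of these member windows, 6 had an unadjusted edgeR p under 0.05 upward and 2 downward, beside 4.84% of all 140449 windows in either direction. All 8 had few reads, most of them in 1 or 2 libraries: the Ndufa3 window at chr7:3619474-3619573 had 22 of its 24 reads in methamphetamine replicate 1. The Sdhc window at chr1:171141366-171141465 had 16 reads, all in saline replicate 3.

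When the CLIP level was taken relative to the RNA level of the same pool, limma called 0 of 11644 genes (0%), with 411 (3.53%) at an unadjusted p under 0.05. The 62 members had a median log2 change of 0.17 against 0.02, and 2 had an unadjusted p under 0.05. With the library set as a covariate the median was 0.42 against 0.09. Atp5pb, subunit b of ATP synthase, had 4, 1 and 5 CLIP reads in saline and 16, 7 and 12 in methamphetamine, with a log2 change of the ratio of 1.62 (SE 0.64). Ndufb9 had 1, 0 and 2 reads in saline and 9, 3 and 4 in methamphetamine, with a change of 2.10 (SE 0.80). Neither passed the adjusted threshold in limma (lowest adjusted p of a member 0.999).

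The authors' final peak lists, 1 per treatment, named members by gene. The methamphetamine list held 31 positions in 24 members, 27.6% of members beside 28.8% of all genes. The saline list held 21 positions in 17 members, 19.5% beside 29.1% of all genes. Among the 7853 better expressed genes defined above, the methamphetamine list named 41.9% and the saline list 40.4%. The lists shared 11 member positions, which is 35.5% of the methamphetamine positions and 52.4% of the saline positions. Each list combines the pools of a treatment, so the difference has no replicate check.

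Some listed positions were on the strand opposite to the member they were named for. Ndufb3 was named for a position in Fam126b, Ndufs3 for positions in Kbtbd4, Cox5a for a position in Gm26631 and Atp5o for positions in Itsn1 and Gm10785, each on the opposite strand. On the member's own strand the methamphetamine list held 27 positions in 22 members and the saline list 16 positions in 14. The shares of all genes given above count positions on either strand, and an own-strand share of all genes was not computed. No counts were found for 5 of the 41 positions in either list.

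In both lists on their own strand were Atp5a1, Atp5b, Atp5g1, Atp5k, Atp5o, Cox7c, Cyc1 and Ndufc2. The Atp5o position is the read-through window at chr16:91780299-91780398, far from Atp5o proper, which leaves 4 ATP synthase subunits with a position in their own gene. The Atp5b window printed above had an authors' score, of unstated scale, of 1.77 for methamphetamine and 0.95 for saline. The Cyc1 window had 1.72 and 1.51 in the same order. Atp5k, subunit e of ATP synthase, had a position at chr5:108434045-108434144 with 83 reads and scores of 1.71 and 2.14, and Ndufc2 one at chr7:97406704-97406803 with 43 reads and scores of 2.18 and 1.28. Member positions had a median score of 1.71 for methamphetamine, where the whole list had 1.60, and of 1.55 for saline, where the whole list had 1.68.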

How the data were processed

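RNA-seq and hnRNP H CLIP-seq from wild-type mouse striatum were used, 3 pools per treatment and assay; mutant mice and other files of the study were not analysed here. Per the submitters' processing notes the tools were Trimmomatic, UMI-tools, STAR, bedtools, Subread, featureCounts, limma and edgeR on build mm10 (GRCm38); versions and roles are not given in the sources used here. The authors deposited RNA-seq as voom log2 CPM, per the labels; with an offset of 0.5 reads, 100% of values inverted to whole reads. The deposited CLIP table holds whole-number counts per window; of its 172271 lines, 24833 repeated a position, and each of 147438 positions entered once. Per the file headers the peak lists hold a signal value, used here as a score, and also p-values and q-values, which served no purpose here.

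RNA-seq was tested with limma 3.58.1 (trend, all 18208 genes) and CLIP counts with edgeR 4.0.16 (quasi-likelihood test after filterByExpr and TMM scaling), both under R 4.3.3, with Benjamini-Hochberg adjustment at 0.05. CLIP relative to RNA used limma on log2 ratios within a pool, offset 0.5 reads, for genes with at least 10 CLIP reads. Alternatives covered offset, filters, scaling, trend, DESeq2 1.42.0, the replicate block, the library set as covariate and each replicate left out. Fits were tested on simulated data. Gene models, lengths and transcript sequences came from GENCODE M21; all 87 members matched, 2 through former symbols.

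Depth limits precision as given in the report. Reads are not independent molecules and counts also vary between pools, so counting error alone understates the uncertainty of read counts. Members and lists were chosen with earlier results of these data known. Genes were named by a rule: the smallest p, the highest and lowest levels per complex, paralog families, members in both peak lists, the deepest windows, the largest set differences and the catalytic subunits; 1 gene it named is not reported here. Genes outside it (Ndufs6, Ndufa9, Atp5pb, Ndufb9, those with extreme CLIP to RNA ratios, the windows tested without a filter and genes of other lists) were chosen after their values were seen.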

Additional observations from a re-analysis of the deposited data

How the results depend on the processing

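The count of called members was 0 in RNA-seq, CLIP windows, CLIP genes and CLIP relative to RNA under every alternative run, but 3 pools per treatment and shallow CLIP windows limit what could be called. Leaving out each replicate in turn moved the members' median log2 change from -0.15 to 0.29 in RNA-seq, from -0.12 to 0.37 in CLIP windows, from 0.07 to 0.53 in CLIP genes and from -0.15 to 0.40 in CLIP relative to RNA. The difference in the members' share of reads, in percentage points, ran from -0.0315 to 0.138 in RNA-seq and from -0.0720 to 0.0904 in CLIP with the read-through windows included, where the shares were 0.357% in saline and 0.371% in methamphetamine. When the lists were restricted to the better-scoring peaks (the median score or more), 15.8% of the member positions in the methamphetamine list were shared, and 7 members had a peak in the saline list. With a replicate block the RNA-seq median was 0.07 and no call changed. Same-numbered pools did not deviate together (r of -0.35, -0.82 and -0.49 in RNA-seq). The libraries of each same-numbered pair fell in different library sets, so these r cannot decide whether the numbers pair the samples. Alternatives on own-strand peaks and without the read-through windows were added after seeing the data.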
